A study of Mus musculus with 36 samples.

Results

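The class I peptide loading genes are 7 genes whose products prepare peptides and fit them into major histocompatibility complex (MHC) class I molecules: Tap1, Tap2, Tapbp, Tapbpl, B2m, Erap1 and Calr. They were taken by gene symbol, which gave 16 of the 45101 probe sets on the array. Of these 16 probe sets, 12 passed a filter on low values and 4 did not, and all 7 genes were among the 9549 genes tested. Newly transcribed RNA of these genes was followed in NIH-3T3 cells, an established mouse embryo fibroblast line, on 36 Affymetrix arrays with 3 arrays in each of 12 groups. The groups crossed 3 treatments (mock, IFN alpha at 100 U/ml and IFN gamma at 100 U/ml) with 4 labelling windows. In a window the cells were given 4-thiouridine (4sU), a nucleoside that is built into RNA made while it is present, so that young RNA can be separated from older RNA. The windows were 0-30, 30-60 and 150-180 min of treatment at 500 µM 4sU, and 0-60 min at 200 µM. Each value is an average over a culture, so a change in all cells and a change in some of them cannot be told apart. The labels number the arrays of a group but do not say that they came from separate cultures, and a p-value therefore measures only how far these arrays differ, which may be technical.

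Class I molecules show peptides from inside the cell to CD8 T cells. Peptides cut by the proteasome are carried into the endoplasmic reticulum by the transporter of Tap1 and Tap2, are shortened there by the aminopeptidase Erap1, and are loaded onto a heavy chain paired with beta-2-microglobulin (B2m). Tapasin (Tapbp) bridges the heavy chain to the transporter, the tapasin-like protein Tapbpl edits peptides, and calreticulin (Calr) is a lectin chaperone of the loading complex that also folds many other glycoproteins. Interferons are known inducers of this pathway; type I interferons such as IFN alpha act through the factor complex ISGF3 and its interferon-stimulated response element (ISRE), and IFN gamma acts through the gamma-activated site (GAS).

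The sequence before the start of Tap1 and of B2m is shown because both genes rose under both interferons within the first hour and had an entry in the table, and a short stretch of Erap1 is shown because it held one of the 2 motif matches found among the members. RefSeq (GRCm38.p6) gave a promoter entry for 5 of the 7 members; Tap2 and Tapbpl were not matched. Windows from 250 bases before to 50 bases after each start, 300 bases in all, were searched on both strands for an ISRE-like pattern (GAAA, any 2 bases, GAAA) and a GAS pattern (TTC, any 3 bases, GAA), and a match of one can overlap a match of the other. The 250 bases before the start of Tap1 (chr17:34187306-34187555, plus strand) and of B2m (chr2:122147437-122147686, plus strand), and 30 bases across the start of Erap1 (chr13:74639839-74639868, plus strand), read as follows, with matches in capitals.
Tap1: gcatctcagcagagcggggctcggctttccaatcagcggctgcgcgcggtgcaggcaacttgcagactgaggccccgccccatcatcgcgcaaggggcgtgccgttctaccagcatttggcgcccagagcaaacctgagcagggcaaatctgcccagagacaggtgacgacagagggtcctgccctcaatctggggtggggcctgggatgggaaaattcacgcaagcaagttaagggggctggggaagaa
B2m: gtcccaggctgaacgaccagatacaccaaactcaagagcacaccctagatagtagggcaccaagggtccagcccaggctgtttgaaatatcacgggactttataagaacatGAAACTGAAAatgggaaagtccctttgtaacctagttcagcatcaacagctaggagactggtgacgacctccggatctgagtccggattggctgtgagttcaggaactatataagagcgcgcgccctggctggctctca
Erap1: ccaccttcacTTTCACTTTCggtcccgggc
The B2m match lay at positions -139 to -130 from the start and the Erap1 match, on the other strand, at -4 to 6. The ISRE-like pattern was thus found in 2 of 5 member windows, against 3.44% of all 32851 windows in the table. The GAS pattern was in 0 of the 5, against 8.3% of all windows. These letters describe the windows and not binding.

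Deposited values were GCRMA log2 values, and all levels below are on that scale. Array medians ran from 3.13 to 3.27. A probe set was tested where it passed log2 4 in at least 3 arrays; a gene was represented by its tested probe set with the highest mean; and a call needed an adjusted p (Benjamini-Hochberg, over all 9549 genes) below 0.05 in limma. Arrays of a group correlated at 0.970 or more in 11 of 12 groups. In the 0-60 min mock group, array 1 stood apart, with a lowest correlation of 0.910. On this array the 3' control probe set of Gapdh, a housekeeping gene, was 2.67 above its 5' control, against -0.57 to 0.73 on the 35 other arrays. Interferon differences of the members from mock called at 0-60 min are therefore given with and without it. For genes outside the members they are given only with it. Of the fibroblast markers, 10 of 10 passed the filter (Vim averaged 13.15), while 1 of 9 macrophage markers passed (Cd14, 6.17), and 0 of 6 dendritic, 0 of 7 measured lymphocyte, 0 of 7 epithelial and 0 of 6 endothelial markers did. Between mock windows the median gene moved by -0.52 from 0-30 to 30-60 min and by 0.55 from 30-60 to 150-180 min.

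In 56 comparisons of a member with mock (7 genes, 2 interferons, 4 windows), 26 passed the test, all 26 towards higher levels. Of all genes, from 0.377% (IFN alpha, 0-30 min) to 4.37% (IFN gamma, 150-180 min) were called higher in these comparisons. Both interferons raised Tap1 at 0-30 min. In this fit Tap2 and B2m followed at 30-60 min under both, and Tapbp under IFN alpha. With the array number as a block, B2m was called at 0-30 min under both and Tapbp at 30-60 min also under IFN gamma. At 150-180 min 6 of the 7 genes were higher under each interferon, with Calr as the exception. In this window 2.58% of all genes were called higher under IFN alpha and 4.37% under IFN gamma. Tap1, Tapbpl and Erap1 had mock means under the filter in every window and were tested through their interferon-treated arrays, so that a test of them was likely to find a difference. For the 4 other genes the mock means passed the filter in every window; of these, Tap2, Tapbp and B2m were called at 150-180 min.

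**Figure D1:**
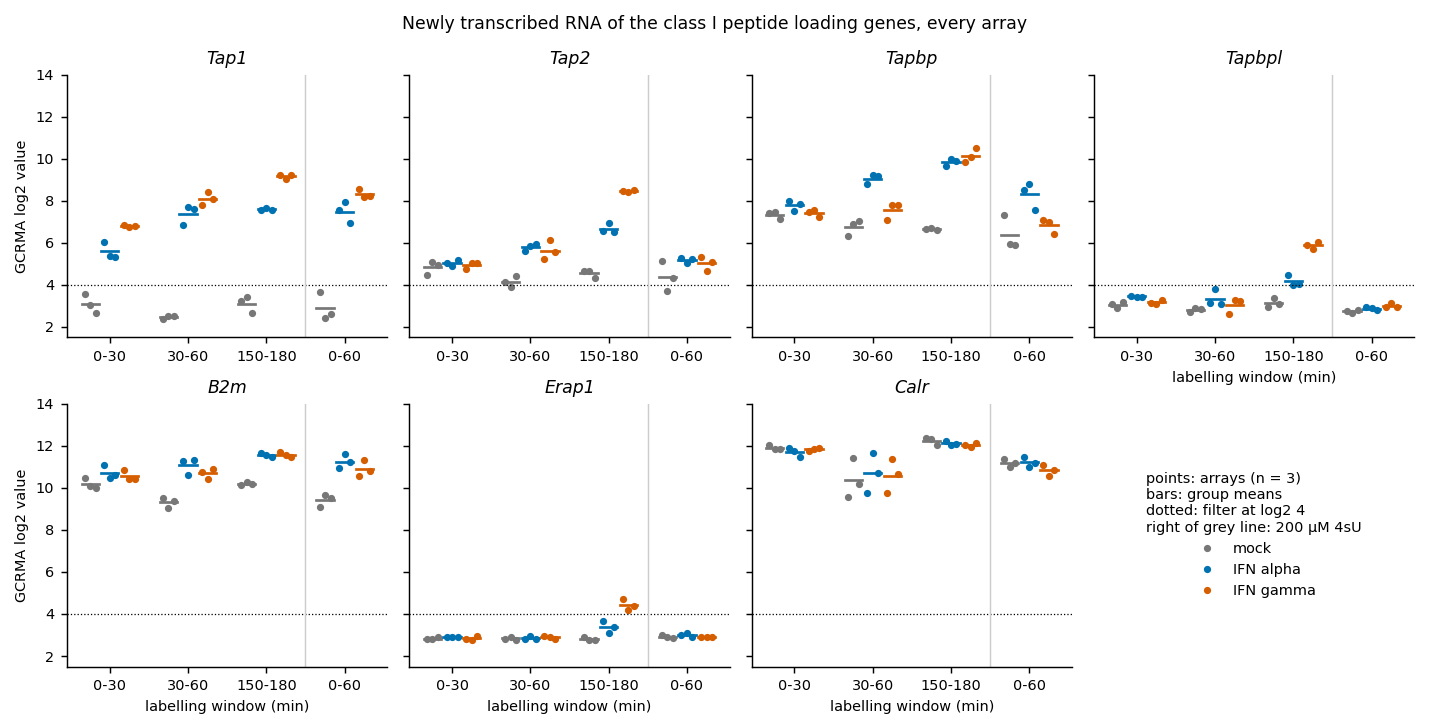
GCRMA log2 value (vertical axis) of the probe set representing each of the 7 genes, by labelling window in min; each point is 1 array, each bar the mean of 3 arrays, and the dotted line the filter at log2 4. Tap1 stands above mock in every window under both interferons, Tap2, Tapbpl and Erap1 are highest under IFN gamma at 150-180 min, and Calr shows no separation by treatment.

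Tap1, 1 of the transporter's 2 chains, was near the low end of the scale in mock cells. At 0-30 min the mock arrays read 3.54, 3.06 and 2.67, the IFN alpha arrays 6.06, 5.37 and 5.33, and the IFN gamma arrays 6.83, 6.76 and 6.78. The 3 treatments did not overlap. Tap1 was 2.50 ± 0.28 (SE, n = 3 and 3) higher than mock under IFN alpha, a 5.64-fold difference on this scale (limma adjusted p = 4.5e-07), and 3.70 ± 0.28 higher under IFN gamma, 13.0-fold (adjusted p = 4.5e-11). It was 1 of 7 members called in each comparison, where 0.377% of all genes were called higher under IFN alpha and 0.754% under IFN gamma. The IFN alpha level minus the IFN gamma level was -1.20 (95% interval -1.78 to -0.63, adjusted p = 0.028; 0.524% of genes lower), and this call was lost in 5 of 9 fits that each left out 1 array, where adjusted p reached 0.28 without IFN alpha array 3. The same held without IFN alpha array 2 and without each of the 3 IFN gamma arrays.

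At 30-60 min Tap1 read 2.38, 2.50 and 2.50 in mock, 6.86, 7.69 and 7.62 under IFN alpha, and 7.78, 8.41 and 8.08 under IFN gamma. Every treated array was far above every mock array. The differences from mock were 4.93 ± 0.28 (30.4-fold, adjusted p = 8.5e-15) and 5.63 ± 0.28 (49.4-fold, adjusted p = 3.7e-16). At 150-180 min the arrays read 3.22, 3.42 and 2.68 in mock, 7.56, 7.67 and 7.54 under IFN alpha, and 9.20, 9.04 and 9.23 under IFN gamma. The IFN alpha difference was 4.49 ± 0.28 (22.4-fold) and the IFN gamma difference 6.05 ± 0.28 (66.3-fold), with adjusted p of 4.2e-14 and 1.7e-17 by limma. The arrays of the interferons did not overlap in this window, and the IFN alpha level minus the IFN gamma level was -1.57 (95% interval -2.14 to -0.99, adjusted p = 2.2e-04). Because mock Tap1 lay below the filter, its folds rest on values close to the array's floor.

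The response of Tap1 grew between the first windows. The difference from mock rose by 2.43 ± 0.40 from 0-30 to 30-60 min under IFN alpha (adjusted p = 1.9e-04) and by 1.93 ± 0.40 under IFN gamma (adjusted p = 0.0049). From 30-60 to 150-180 min neither change passed the test: it was -0.44 under IFN alpha (95% interval -1.25 to 0.37) and 0.42 under IFN gamma (-0.39 to 1.24). With 0-60 min labelling the mock arrays read 3.68, 2.41 and 2.61, the IFN alpha arrays 7.56, 7.92 and 6.96, and the IFN gamma arrays 8.55, 8.20 and 8.23. The interferon groups stayed clear of mock, by 4.58 ± 0.28 and 5.42 ± 0.28, and by 4.97 and 5.81 without the outlying mock array. Here the IFN alpha level minus the IFN gamma level was -0.84, which did not pass the test (adjusted p = 0.10), but did with the array number as a block (0.019) and without the outlying mock array (0.032). The fit with the block called 3.08% of all genes lower under IFN alpha than under IFN gamma, and that without the array 2.21% lower and 3.69% higher. The 3 other Tap1 probe sets were below log2 2.8 on all 36 arrays and carried no measurable response.

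Tap2, the partner chain of Tap1, was measured by 1 probe set, and no call was made in its first window. At 0-30 min it read 4.44, 5.08 and 4.94 in mock, 5.05, 4.90 and 5.19 under IFN alpha, and 4.75, 5.01 and 5.03 under IFN gamma. These groups overlapped, with differences from mock of 0.22 (95% interval -0.29 to 0.74) and 0.11 (-0.41 to 0.62). At 30-60 min the mock arrays read 4.14, 3.92 and 4.41, the IFN alpha arrays 5.62, 5.84 and 5.96, and the IFN gamma arrays 5.21, 6.13 and 5.55. Both interferon groups now lay above mock, by 1.65 ± 0.25 (3.15-fold, adjusted p = 2.3e-05) and 1.47 ± 0.25 (2.78-fold, adjusted p = 9.8e-05), and overlapped each other. The growth from the previous window was 1.43 ± 0.36 under IFN alpha (adjusted p = 0.032) and 1.37 ± 0.36 under IFN gamma (adjusted p = 0.041); leaving out 1 array ended the first call in 8 of 18 fits and the second in 10 of 18. The arrays that ended both calls were mock 0-30 min arrays 2 and 3, mock 30-60 min arrays 1 and 2, and IFN alpha 0-30 min array 1. IFN alpha 0-30 min array 2 and 30-60 min arrays 2 and 3 ended the first, and all 3 IFN gamma 0-30 min arrays and 30-60 min arrays 2 and 3 the second. Adjusted p reached 0.13 (without mock 0-30 min array 2) and 0.19 (without IFN gamma 30-60 min array 2).

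The 2 interferons parted at Tap2 in the last window. At 150-180 min the arrays read 4.66, 4.65 and 4.33 in mock, 6.55, 6.93 and 6.50 under IFN alpha, and 8.45, 8.40 and 8.51 under IFN gamma. No 2 of the groups overlapped. Tap2 was 2.11 ± 0.25 above mock under IFN alpha (4.32-fold, adjusted p = 1.8e-07) and 3.91 ± 0.25 under IFN gamma (15.0-fold, adjusted p = 1.1e-13), and the IFN alpha level minus the IFN gamma level was -1.79 (95% interval -2.31 to -1.28, adjusted p = 4.5e-06). Under IFN gamma the response grew by 2.43 ± 0.36 from 30-60 to 150-180 min (adjusted p = 3.2e-05), against 0.46 (-0.27 to 1.19) under IFN alpha. In the 0-60 min window mock array 1 read 5.13 and the other mock arrays 3.71 and 4.30, so that array 1 overlapped the IFN alpha arrays (5.29, 5.04 and 5.24) and the IFN gamma arrays (5.33, 4.65 and 5.09). Differences from mock were 0.81 and 0.64 (adjusted p = 0.12 and 0.13). They were 1.19 (adjusted p = 0.0021) and 1.01 (0.0062) without that array, and passed with the array number as a block too (0.021 and 0.029).

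**Figure D2:**
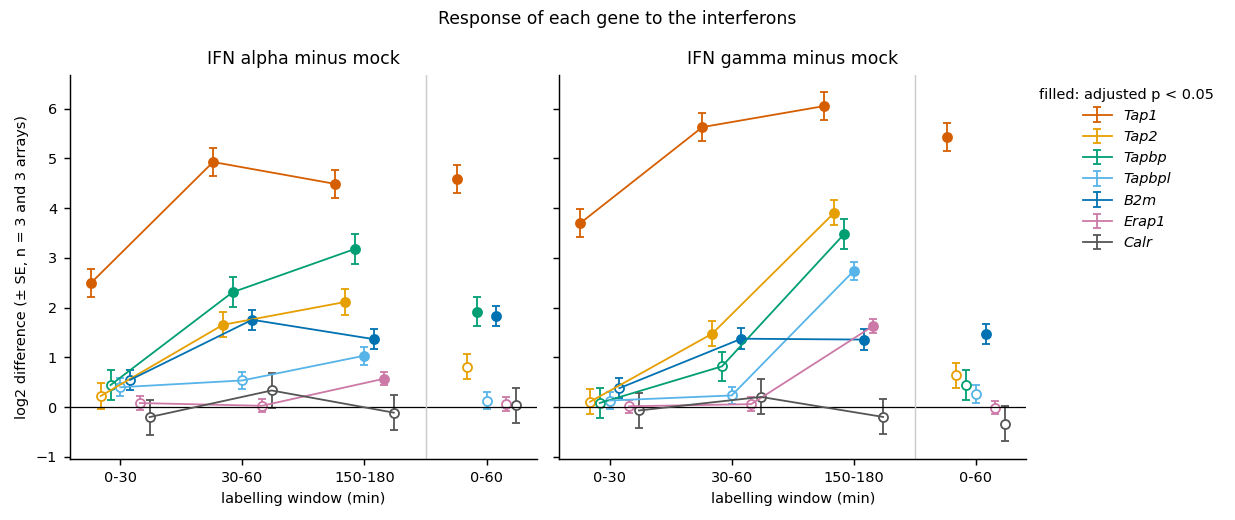
log2 difference from mock (vertical axis, ± SE, 3 against 3 arrays) of the 7 genes by labelling window in min, under IFN alpha on the left and IFN gamma on the right; filled points passed an adjusted p of 0.05, and lines join the 3 windows labelled at 500 µM. Tap1 lies highest in every window, and Tap2, Tapbp, Tapbpl and Erap1 climb between 30-60 and 150-180 min under IFN gamma.

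Tapasin, Tapbp, differed from the transporter genes in which interferon raised it first. At 0-30 min it read 7.39, 7.47 and 7.12 in mock, 7.96, 7.53 and 7.82 under IFN alpha, and 7.45, 7.55 and 7.24 under IFN gamma. IFN alpha arrays lay just above the mock arrays, by 0.44 on average (95% interval -0.16 to 1.05), and IFN gamma arrays overlapped them. At 30-60 min the mock arrays read 6.30, 6.87 and 7.04, the IFN alpha arrays 8.78, 9.21 and 9.15, and the IFN gamma arrays 7.08, 7.80 and 7.79. IFN alpha raised Tapbp by 2.31 ± 0.30 (4.95-fold, adjusted p = 9.4e-07), a gain of 1.87 ± 0.42 over the first window (adjusted p = 0.011; 0.059 without mock 30-60 min array 1 and 0.053 without IFN alpha 0-30 min array 2). The IFN gamma arrays were also above mock, by 0.82 ± 0.30, which did not pass the test (adjusted p = 0.12). It passed with the array number as a block (adjusted p = 0.0076, where 5.75% of genes were called higher) and with array weights (0.0018). Tapbp was 1.49 higher under IFN alpha than under IFN gamma (95% interval 0.88 to 2.10, adjusted p = 8.0e-04), and 2.97% of all genes were called higher in this comparison.

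By 150-180 min both interferons gave like Tapbp values. The mock arrays read 6.67, 6.69 and 6.61, the IFN alpha arrays 9.63, 9.98 and 9.89, and the IFN gamma arrays 9.82, 10.07 and 10.50. The interferon groups overlapped each other and stood 3.18 ± 0.30 (9.04-fold, adjusted p = 7.7e-10) and 3.48 ± 0.30 (11.1-fold, adjusted p = 9.5e-11) above mock. The difference between them was -0.30 (95% interval -0.90 to 0.31). Under IFN gamma the response grew by 2.66 ± 0.42 from 30-60 to 150-180 min (adjusted p = 1.1e-04), and under IFN alpha by 0.87 (95% interval 0.01 to 1.73, adjusted p = 0.98). In the 0-60 min window the mock arrays read 7.33, 5.92 and 5.89, the IFN alpha arrays 8.51, 8.80 and 7.58, and the IFN gamma arrays 7.09, 6.97 and 6.40. IFN alpha again lay above both other groups, by 1.92 ± 0.30 over mock (adjusted p = 4.2e-05) and 1.47 over IFN gamma (95% interval 0.87 to 2.08, adjusted p = 0.0015). Without mock array 1 the difference from mock was 2.39 (adjusted p = 1.3e-07). Fitted on the 0-60 min arrays alone, with all 3 mock arrays, adjusted p for the differences from mock and from IFN gamma was 0.14 and 0.31. The IFN gamma difference from mock was 0.44 (adjusted p = 0.38) with mock array 1 and 0.92 (0.040) without it.

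A second Tapbp probe set, lower on the scale, gave the same direction in every interferon comparison with mock but another course in time. In the fit over all 21874 probe sets that passed the filter, it was 1.49 ± 0.31 above mock under IFN alpha already at 0-30 min (adjusted p = 0.014, with 0.338% of probe sets called higher; 5.24, 5.32 and 5.00 against 3.53, 3.87 and 3.68). At 30-60 min it stood 1.49 ± 0.31 above mock, so that its change between these windows was 0.00 where the first probe set gained 1.87. Its advantage of IFN alpha over IFN gamma was 0.78 ± 0.31 at 30-60 min and did not pass the test (adjusted p = 0.24). At 150-180 min it was 3.61 and 3.90 above mock under IFN alpha and IFN gamma, near the first probe set's values. Which probe set better follows the Tapbp transcript was not tested.

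**Figure D3:**
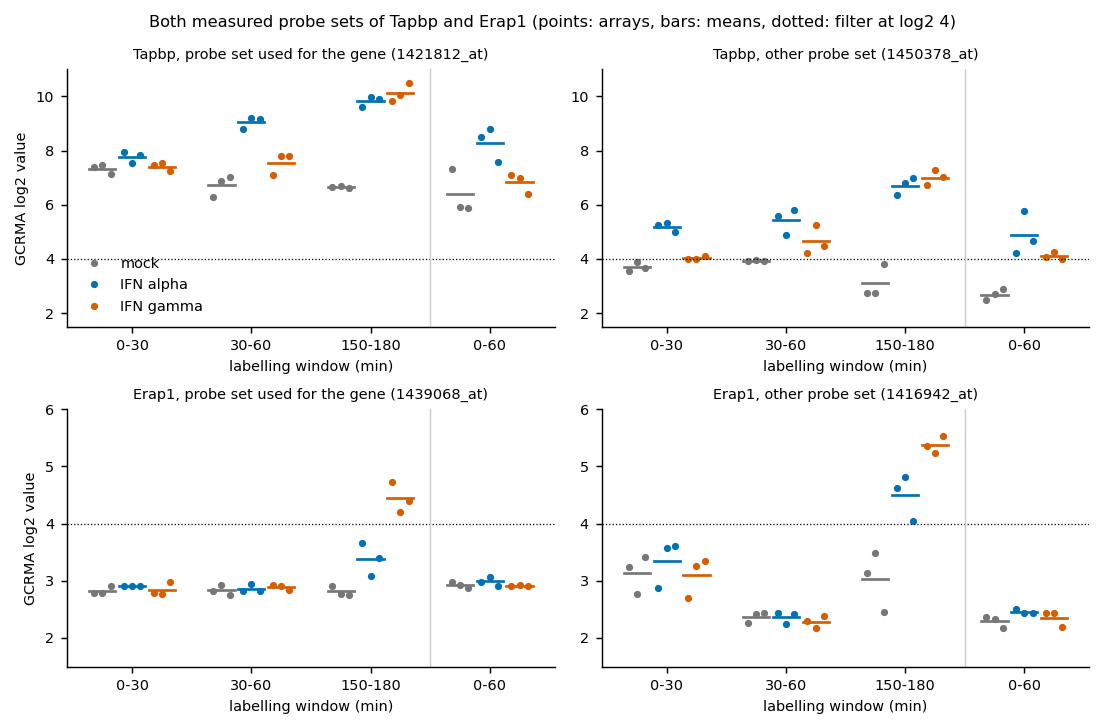
GCRMA log2 value by labelling window in min for the 2 tested probe sets of Tapbp (top) and of Erap1 (bottom); points are arrays, bars means of 3, and the dotted line the filter at log2 4. The second Tapbp probe set is already above mock at 0-30 min under IFN alpha, and both Erap1 probe sets rise at 150-180 min.

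Tapbpl, the tapasin-like peptide editor, was below the filter on every array outside the 150-180 min interferon groups, and ranged there from 2.59 to 3.79. At 150-180 min it read 2.94, 3.38 and 3.11 in mock, 4.46, 4.01 and 4.06 under IFN alpha, and 5.89, 5.71 and 6.04 under IFN gamma. The 3 groups were in steps without overlap. The IFN alpha difference from mock was 1.03 ± 0.18 (2.05-fold, adjusted p = 1.4e-04) and the IFN gamma difference 2.74 ± 0.18 (6.67-fold, adjusted p = 1.3e-13). The IFN alpha level minus the IFN gamma level was -1.70 (95% interval -2.07 to -1.34, adjusted p = 1.6e-08). The IFN gamma response grew by 2.50 ± 0.25 from the 30-60 min window (adjusted p = 2.2e-08). Earlier differences from mock ran from 0.13 to 0.54 and did not pass the test. The second Tapbpl probe set stayed below 2.6 on all arrays.

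Calreticulin, Calr, was the member with no interferon call in any window by limma without a block, and 0 of its 8 differences from mock had an unadjusted p under 0.05. Its differences from mock ran from -0.33 to 0.33, with 95% intervals as wide as -1.05 to 0.39 (IFN gamma, 0-60 min). At 30-60 min the arrays read 9.55, 11.40 and 10.19 in mock, 9.75, 11.68 and 10.71 under IFN alpha, and 9.74, 11.36 and 10.65 under IFN gamma. Array 1 was lowest and array 2 highest in each of the 3 treatments, and the treatments overlapped. With the array number as a block, Calr under IFN gamma minus mock was -0.33 at 0-60 min (11.10, 10.56 and 10.85 against 11.35, 10.99 and 11.16; adjusted p = 0.023; -0.24 without mock array 1 and without the block, adjusted p = 0.87), and 0.37 higher under IFN alpha than under IFN gamma there (adjusted p = 0.020). Its IFN alpha difference grew by 0.53 from 0-30 to 30-60 min in that fit (adjusted p = 0.049, with 1.99% of genes called). Both other Calr probe sets gave no interferon call. In mock cells Calr fell by 1.53 ± 0.35 from 0-30 to 30-60 min (adjusted p = 4.3e-04) and rose by 1.85 ± 0.35 to 150-180 min (adjusted p = 3.7e-05), beside the median gene's -0.52 and 0.55.

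B2m, the light chain of the class I molecule, had a high mock level and a response of about the same size under both interferons. At 0-30 min the mock arrays read 10.45, 10.11 and 9.97, the IFN alpha arrays 11.06, 10.49 and 10.62, and the IFN gamma arrays 10.85, 10.41 and 10.41. The IFN alpha arrays all lay above the mock arrays, by little, the IFN gamma arrays overlapped them, and each treated array exceeded the mock array of its number. The differences, 0.55 ± 0.21 and 0.38 ± 0.21, did not pass the test (adjusted p = 1.00 for each); with the array number as a block they did (adjusted p = 4.9e-04 and 0.017), in a fit that called 0.482% and 1.12% of all genes higher. At 30-60 min the mock arrays read 9.53, 9.02 and 9.39, the IFN alpha arrays 11.29, 10.62 and 11.30, and the IFN gamma arrays 10.76, 10.44 and 10.87. Now every treated array was above every mock array. B2m was 1.76 ± 0.21 higher under IFN alpha (3.38-fold, adjusted p = 1.6e-07) and 1.37 ± 0.21 higher under IFN gamma (2.59-fold, adjusted p = 1.2e-05).

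B2m was above mock in the last window too. At 150-180 min the mock arrays read 10.15, 10.26 and 10.19, the IFN alpha arrays 11.66, 11.55 and 11.49, and the IFN gamma arrays 11.68, 11.55 and 11.44. Both differences from mock were 1.36 ± 0.21, 2.57-fold under IFN alpha and 2.56-fold under IFN gamma (adjusted p = 1.4e-05 and 1.3e-05). The interferons overlapped, with a difference of 0.01 (95% interval -0.41 to 0.43). From 0-30 to 30-60 min the response grew by 1.21 ± 0.29 under IFN alpha (adjusted p = 0.022) and by 0.99 ± 0.29 under IFN gamma (adjusted p = 0.097; 6.7e-06 with the block, which called 2.32% of genes). The IFN alpha call was lost in 6 of 18 fits that left out 1 array, namely mock 0-30 min array 1, IFN alpha 0-30 min arrays 2 and 3, mock 30-60 min array 2, and IFN alpha 30-60 min arrays 1 and 3, with an adjusted p of 0.11 at most. From 30-60 to 150-180 min the difference was -0.39 (95% interval -0.99 to 0.20) under IFN alpha, where array weights gave -0.56 (adjusted p = 0.026), and -0.02 (-0.61 to 0.58) under IFN gamma. In the 0-60 min window B2m was 1.83 ± 0.21 and 1.47 ± 0.21 above mock (9.10, 9.64 and 9.51 in mock, 10.93, 11.59 and 11.22 under IFN alpha, 10.56, 11.33 and 10.78 under IFN gamma), and 1.67 and 1.31 without mock array 1. IFN alpha exceeded IFN gamma by 0.38 at 30-60 min and 0.36 at 0-60 min, which did not pass the test (adjusted p = 0.50 and 0.55). With the block both passed (adjusted p = 0.0032 and 0.0076), in fits that called 5.75% and 6.47% of genes higher under IFN alpha, and with array weights the 30-60 min difference passed (0.018). The second B2m probe set followed the first, with 2.01 and 1.57 above mock at 30-60 min, 1.46 and 1.44 at 150-180 min, and its growth under IFN gamma from 0-30 to 30-60 min passed the test (1.19 ± 0.28, adjusted p = 0.023, with 0.928% of probe sets called).

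Mock B2m itself moved between windows. It fell by 0.86 ± 0.21 from 0-30 to 30-60 min (limma adjusted p = 6.3e-04) and rose by 0.89 ± 0.21 to 150-180 min (adjusted p = 4.2e-04). The growth of the B2m response from 0-30 to 30-60 min includes this fall of mock. In the first of these steps 3 of 7 members were called lower (Tap2, B2m and Calr) and in the second 3 were called higher (Tap1, B2m and Calr), where 51.8% and 53.4% of all genes were; the members' shares were near or below the background. Between mock 0-60 and 0-30 min, 2 members were lower (Tapbp and B2m), against 23.3% of genes. Of these calls, that of Tap1 (0.64, limma adjusted p = 0.046) was lost in 12 of 18 fits that left out 1 array. The highest adjusted p, 0.19, came without mock 150-180 min array 2. Mock Tap1 lay under the filter. Its call was also lost after adding 16 to the linear values (0.20, adjusted p = 0.37), with no filter (0.083) and with all probe sets tested (0.051). That of Tap2 (-0.67, adjusted p = 0.023) was lost in 4 of 18, with 0.11 without mock 0-30 min array 2. That of Tapbp at 0-60 min (-0.95, adjusted p = 0.013) was lost in 3 of 18, with 0.086 without mock 0-60 min array 3, and was -1.42 without mock 0-60 min array 1.

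Erap1, the peptide trimming enzyme of the endoplasmic reticulum, changed only in the last window among those tested. In the other windows all its arrays read from 2.76 to 3.07, and differences from mock were between -0.01 and 0.08. At 150-180 min the mock arrays read 2.91, 2.78 and 2.75, the IFN alpha arrays 3.66, 3.09 and 3.40, and the IFN gamma arrays 4.73, 4.21 and 4.40. The groups did not overlap, and only the IFN gamma arrays passed log2 4. The IFN gamma difference from mock was 1.63 ± 0.13 (3.10-fold, adjusted p = 3.3e-11) and had grown by 1.57 ± 0.19 since 30-60 min (adjusted p = 8.0e-07). The IFN alpha difference was 0.57 ± 0.13 (limma adjusted p = 0.0077). Its call was lost without IFN alpha array 1 (0.43, adjusted p = 0.12) or when only this window's arrays were fitted (adjusted p = 0.12). It was also lost after adding 16 to the linear values (0.20, adjusted p = 0.076). For IFN alpha minus IFN gamma the difference was -1.06 (95% interval -1.33 to -0.79, adjusted p = 5.8e-07). The second Erap1 probe set gave larger responses in the same window, 1.47 ± 0.23 under IFN alpha (adjusted p = 3.2e-05) and 2.35 ± 0.23 under IFN gamma (adjusted p = 3.3e-09).

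Across members, the IFN alpha comparison with mock called 1, 4, 6 and 3 of 7 genes higher at 0-30, 30-60, 150-180 and 0-60 min, where 0.377%, 2.4%, 2.58% and 1.91% of all genes were called higher. The IFN gamma comparison called 1, 3, 6 and 2, where 0.754%, 3.82%, 4.37% and 3.83% were. At 0-60 min the counts without mock array 1 were 4 and 4, beside 1.73% and 3.19% of all genes. With the block at 0-60 min, IFN alpha gave 4 higher, beside 3.76% of genes, and IFN gamma 3 higher and 1 lower, beside 8.59% and 11.8%. The median member difference at 150-180 min was 1.36 under IFN alpha and 2.74 under IFN gamma, while the median over all genes tested was -0.10 in both. At 30-60 min it was 1.65 and 0.82, while over all genes it was -0.04 and -0.05. Tap1, Tapbpl and Erap1 entered these counts and medians through their treated arrays, so values above those of all genes were likely. The IFN gamma median at 150-180 min was the value of Tapbpl itself. The interferon comparisons of a window share their mock arrays, so their values are set side by side here and not compared as independent results.

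Set directly against each other, the interferons differed in 2 ways. At 150-180 min 4 of the 7 members (Tap1, Tap2, Tapbpl and Erap1) were lower under IFN alpha than under IFN gamma and 0 were higher, where 2.8% of all genes were called lower. Erap1 passed the filter only through the IFN gamma arrays of this window, and Tapbpl only through its interferon arrays. Their calls here, and for growth to this window under IFN gamma, were thus likely. With a filter at log2 6, which dropped both, 2 members were lower under IFN alpha. At 30-60 and 0-60 min Tapbp alone was called, and in the other direction, where 2.97% and 2.36% of genes were called higher under IFN alpha. The second Tapbp probe set did not pass this test at 30-60 min. Fitted on the 0-60 min arrays alone, the 0-60 min call was lost (limma adjusted p = 0.31). B2m and Calr were not called in any window in the fit with neither block nor array weights. In the difference from mock, 4 members grew under IFN alpha from 0-30 to 30-60 min (Tap1, Tap2, Tapbp and B2m, beside 1.27% of genes). Under IFN gamma 2 grew (Tap1 and Tap2, beside 1.27%). Over this step mock Tap1, Tap2, Tapbp and B2m moved by -0.63, -0.67, -0.59 and -0.86. The growth includes these mock changes. From 30-60 to 150-180 min 4 grew under IFN gamma (Tap2, Tapbp, Tapbpl and Erap1; 1.2% of genes) and 0 under IFN alpha (0.429%) by limma, with unadjusted p under 0.05 in 2 of 7 (Tapbp and Erap1). The second probe sets of Tapbp and Erap1 were called for this step under IFN alpha (2.11 ± 0.44 and 1.47 ± 0.32, adjusted p = 0.013 and 0.021), in a fit that called 0.334% of probe sets.

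**Figure D4:**
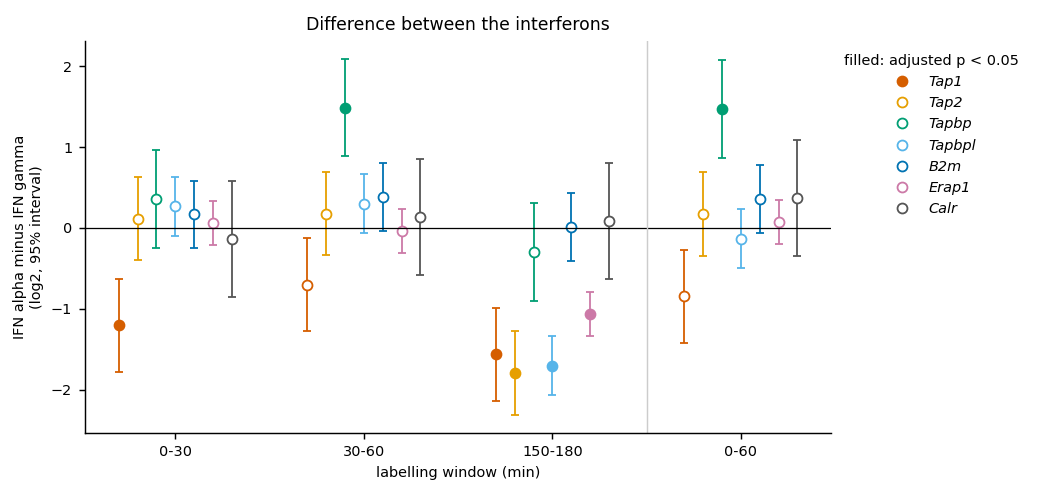
IFN alpha level minus IFN gamma level (log2, vertical axis, with 95% intervals, 3 against 3 arrays) of the 7 genes by labelling window in min; filled points passed an adjusted p of 0.05. Tapbp lies above 0 at 30-60 and 0-60 min, and Tap1, Tap2, Tapbpl and Erap1 lie below 0 at 150-180 min.

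Other genes of the class I pathway were counted in 6 lists. Of the class I heavy chains, which B2m pairs with, 4 of 20 listed genes were tested, and these genes are close relatives whose probes may share signal. All 4 tested heavy chains were higher under IFN alpha at 30-60 min and 2 under IFN gamma, beside 2.4% and 3.82% of all genes. At 150-180 min 3 were higher under each, beside 2.58% and 4.37%. H2-Q5 had mock means under the filter in every window. H2-K1 was 1.57 ± 0.23 and 1.12 ± 0.23 above mock at 30-60 min. H2-M3, a nonclassical heavy chain, resembled Tapbp in that it was higher under IFN alpha than under IFN gamma at 30-60 min (1.70 ± 0.21, adjusted p = 4.5e-07) and at 0-60 min (1.71 ± 0.21, adjusted p = 1.1e-06). The immunoproteasome list makes the peptides that the transporter carries, and 3 of its 5 genes were tested. All 3 were higher under each interferon at 150-180 min, beside the same shares of all genes. Psmb9 and Psmb10 had mock means under the filter in every window (2.57 to 2.73 and 3.37 to 3.76). Tested through their treated arrays, they were likely to show a difference. At 150-180 min Psmb9 was 3.02 ± 0.21 above mock under IFN alpha and 5.58 ± 0.21 under IFN gamma. Like Tap1, it was called already at 0-30 min (1.07 ± 0.21 and 1.90 ± 0.21). Psmb10 was 1.46 ± 0.30 higher under IFN alpha than under IFN gamma at 30-60 min (adjusted p = 9.7e-04).

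The standard proteasome list, of Psmb5, Psmb6 and Psmb7, which the immunoproteasome subunits replace, and the activator subunit Psme3, gave 0 calls of 4 in each of the 8 comparisons with mock by limma, and 0 of the 32 values had an unadjusted p under 0.05; differences ran from -0.37 to 0.58, both of Psme3. The group Calr belongs to held 14 chaperones and other folding or translocation proteins of the endoplasmic reticulum. Of these, 0 were higher in any of the 8 and 1 was lower in 1 of them. This was Sec61a1, a translocon subunit, by -0.50 under IFN alpha at 0-60 min (limma adjusted p = 0.046, with the outlying mock array included). In this list 5 of 112 values had an unadjusted p under 0.05, 1 of them higher. Of the 6 tested cytosolic and other peptidases, 2 were higher under IFN gamma at 30-60 min, beside 3.82% of all genes. These were Lap3, an aminopeptidase (0.76 ± 0.20), and Blmh, bleomycin hydrolase (0.70 ± 0.16), with limma adjusted p of 0.017 and 0.0041. Lap3 was also higher under IFN gamma at 150-180 min (1.78 ± 0.20) and at 0-60 min (0.74 ± 0.20, adjusted p = 0.021). Of the 6 peptidases, 0 were higher under IFN alpha in any window by limma, where 0 of 24 values had an unadjusted p under 0.05. Of 9 tested regulators of class I genes, 3 were higher under IFN alpha and 5 under IFN gamma at 150-180 min, beside 2.58% and 4.37% of all genes. Irf1, a transcription factor of many class I pathway genes, was 2.15 ± 0.19 and 5.14 ± 0.19 above mock under IFN alpha and IFN gamma at 0-30 min. Nlrc5, a coactivator of class I promoters, was called at 150-180 min (2.91 ± 0.13 and 5.29 ± 0.13), the window in which Tapbpl and Erap1 were called. Its mock means were under the filter in every window (2.35 to 2.39).

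**Figure D5:**
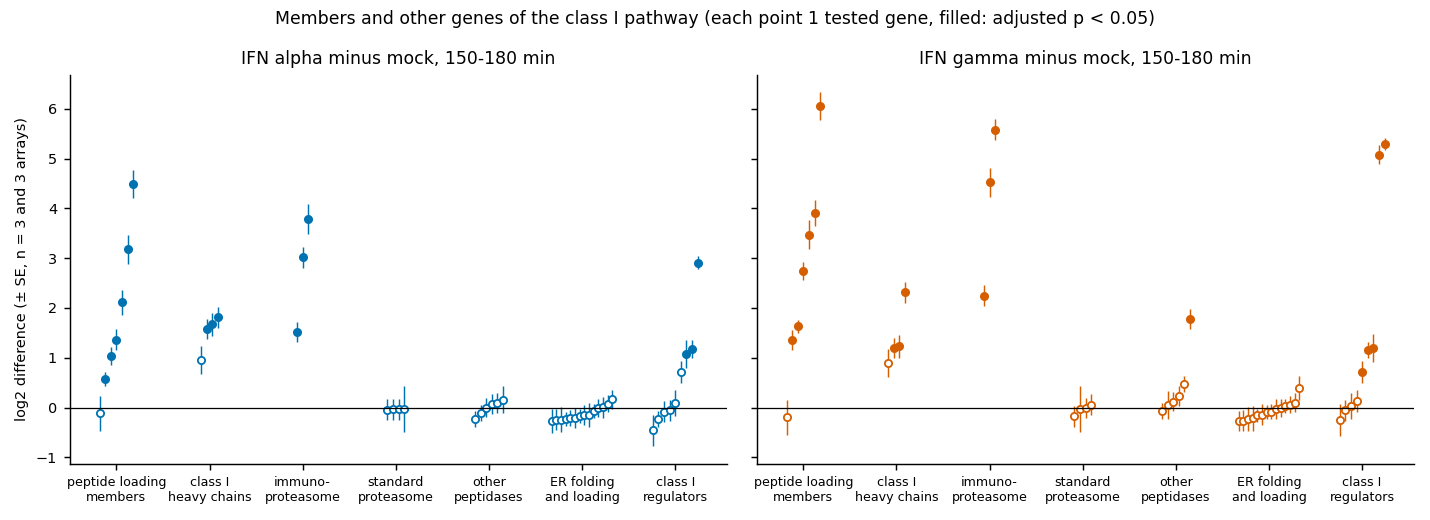
log2 difference from mock at 150-180 min (vertical axis, ± SE, 3 against 3 arrays) under IFN alpha (left) and IFN gamma (right), 1 point for each tested gene of the 7 members and 6 other pathway lists; filled points passed an adjusted p of 0.05. Members, heavy chains and immunoproteasome genes are above 0, with Calr the exception among the members, while standard proteasome and endoplasmic reticulum folding genes lie near 0.

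The members did not share 1 pattern over the 12 group means. As a description over groups that share arrays, treatments and labelling, Pearson's r was 0.96 between Tapbpl and Erap1, 0.94 between Tap2 and Tapbpl, 0.72 between Tap1 and Tap2, and 0.52 between Tap1 and Tapbpl, and for Calr it ran from -0.03 (Tap1) to 0.49 (Tapbpl). The genes most like Tap1 among the 9549 were the GTPase genes Irgm2, Igtp and Irgm1 (r = 0.99 each). Those most like Tap2 were Tmem140, Gm4951 and Gbp6 (0.95, 0.94 and 0.94), those most like Tapbp were Xaf1, Oasl2 and Parp12 (0.98, 0.97 and 0.97), and those most like B2m were Nampt, Trim21 and Stat2 (0.97, 0.97 and 0.95). Nlrc5 was among the 3 nearest genes of both Tapbpl (0.96, after Ccl8 at 0.97, before Tmem140 at 0.96) and Erap1 (0.97, after Il15ra and Gm12185 at 0.99 each). Outside the 150-180 min interferon groups, Tapbpl, Erap1 and Nlrc5 all had group means under the filter. Tapbpl and Erap1 passed it only through those groups. The r values among these genes therefore rest largely on those groups, and shared regulation was not tested. Calr lay nearest to Atp5j, Nol7 and Prim2 (0.99 each).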

How the data were processed

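Newly transcribed, 4sU-labelled RNA was measured on 36 arrays, 3 in each of 12 groups. The authors deposited GCRMA log2 values, per the submitters' processing notes; the version, and any steps before that, are not given in the sources used here. Values ran from 1.34 to 14.44, and the number of arrays limits the precision. Gene symbols came from the platform's annotation: 34945 probe sets had 1 symbol, 932 several and 9160 none, 64 controls were left out, and 34741 matched the RefSeq gene table (GRCm38.p6, used for names).

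Probe sets above log2 4 in at least 3 arrays were kept (21874), and the one with the highest mean stood for a gene (9549 genes). The fit used limma 3.58.1 in R 4.3.3 with lmFit, contrasts.fit and eBayes with trend on all 36 arrays, with two-sided tests, Benjamini-Hochberg adjustment over all genes of a comparison, and a threshold of 0.05 for each of 19 comparisons. Further member probe sets were tested in a fit of all kept probe sets. The fit was tested on simulated data.

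The members and all gene lists were chosen with earlier results of these data known. Every member is named; of each pathway list at most 4 called genes per comparison may be named, by size of change; and 3 most similar genes are named per member. The lists were class I heavy chains, immunoproteasome, standard proteasome, other peptidases, endoplasmic reticulum folding and class I regulators, and markers of fibroblasts, macrophages, dendritic cells, lymphocytes, epithelium and endothelium.

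Array numbers come from the labels. Deviations of same-numbered arrays from their group means correlated above 0.1 in 9 of 9 pairs at 0-30, 30-60 and 0-60 min but in 7 of 9 at 150-180 min, so the numbers pair the arrays in the first 3 of these; the fit with the array number as a block is an alternative. The others were another filter, an added constant, array weights, fewer arrays, all probe sets, a minimum change of 2-fold, and each array left out in turn.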

Additional observations from a re-analysis of the deposited data

Results flagged for a closer look

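In 10 cases a member's difference from mock was not the same in consecutive labelling windows by a test of that change (limma, adjusted over all genes, 3 arrays in each of 4 groups). From 0-30 to 30-60 min under IFN alpha the difference grew by 2.43 for Tap1, 1.43 for Tap2, 1.87 for Tapbp and 1.21 for B2m, on the log2 scale. Growth was called for 1.27% of all genes there. Over the same step under IFN gamma the difference grew by 1.93 for Tap1 and 1.37 for Tap2, beside 1.27% of all genes called. From 30-60 to 150-180 min under IFN gamma it grew by 2.43 for Tap2, 2.66 for Tapbp, 2.50 for Tapbpl and 1.57 for Erap1. Growth was called for 1.2% of all genes there. Tapbpl and Erap1 passed the filter only through treated arrays of 150-180 min, so their calls were likely. The consecutive changes of 1 interferon share the 30-60 min arrays, and both interferons share the mock arrays. Over the first step mock Tap1, Tap2, Tapbp and B2m moved by -0.63, -0.67, -0.59 and -0.86, which the growth includes. Leaving out 1 array ended the first-step calls under IFN alpha in 8 of 18 fits for Tap2, 2 for Tapbp and 6 for B2m. Under IFN gamma it ended that of Tap2 in 10 of 18. The second Tapbp probe set, already above mock at 0-30 min under IFN alpha, did not grow over this step under that interferon.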

How the results depend on the processing

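No member value reversed its direction where it was called, under the settings tried or with any 1 array left out; a change of sign between values called in neither setting was counted as no change. Of 1425 values under other settings 1370 kept their direction and side of the threshold, 21 lost a call and 34 gained one; of 1638 values with 1 array left out, 1579 kept theirs, 51 lost a call and 8 gained one. With the replicate block (array number within its window), 2 members were called under IFN alpha and 2 under IFN gamma at 0-30 min, 2 between the interferons at 30-60 min, 4 under IFN gamma and 4 between the interferons at 0-60 min; the block at 150-180 min, where the numbers did not pair the arrays in 2 of 9 pairs, moved no count by over 1.5 times. At 0-30 min the block called 0.482% and 1.12% of all genes higher, against 0.377% and 0.754% without it. Under IFN gamma at 0-60 min the block called 8.59% higher, against 3.83% without it. With no filter, 0 members differed between the interferons at 0-30 min, and 2 and 1 grew from 0-30 to 30-60 min under IFN alpha and IFN gamma. With all probe sets tested, 1 grew in that step under IFN gamma. After adding 16 to the linear values, 2 differed between the interferons at 30-60 min and 2 at 0-60 min. With array weights, 3 differed between the interferons at 30-60 min, 5 changed from 30-60 to 150-180 min under IFN alpha (2 grew, Tapbp and Tapbpl, and 3 shrank, Tap1, B2m and Calr; 0 without weights), and 4 differed between mock 0-60 and 0-30 min; the cause was not tested. A filter at log2 6, which dropped Tapbpl and Erap1, gave 2 between the interferons at 150-180 min and 2 that grew from 30-60 to 150-180 min under IFN gamma. With a fit limited to a comparison's own windows, 0 differed between the interferons at 0-60 min and 5 between mock 30-60 and 0-30 min. A 2-fold minimum left 1, 1 and 0 calls in the mock steps to 30-60, to 150-180 and to 0-60 min. Leaving out 1 array gave 1 to 1 calls at 0-30 min for each interferon and 0 to 1 between them, 4 to 4, 3 to 3 and 1 to 1 at 30-60 min, 5 to 6, 6 to 6 and 4 to 4 at 150-180 min, and 3 to 4, 2 to 4 and 1 to 2 at 0-60 min. It gave 1 to 4 and 0 to 0 for growth under IFN alpha, 1 to 2 and 4 to 4 under IFN gamma, and 2 to 4, 2 to 3 and 1 to 3 for the mock steps. Values near the floor of the scale limit the folds of Tap1, Tapbpl and Erap1.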

Other observations

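Among the regulators of class I genes, Irf1 differed between the interferons. Irf1 was lower under IFN alpha than under IFN gamma in each of the 4 windows, with differences of -2.98, -1.77, -3.91 and -1.32 on the log2 scale at 0-30, 30-60, 150-180 and 0-60 min (SE 0.19, n = 3 and 3). Under IFN alpha its difference from mock fell by 2.91 ± 0.27 from 30-60 to 150-180 min (limma adjusted p = 3.0e-09). Nfyb, a subunit of the factor NF-Y that binds class I promoters, was higher than mock under IFN gamma in all 4 windows, by 0.81, 2.48, 1.16 and 1.43. Its difference between the interferons is not given here. The immunoproteasome gene Psmb9 was lower under IFN alpha than under IFN gamma at 30-60, 150-180 and 0-60 min, with differences of -1.57, -2.56 and -0.82.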
